A study of Mus musculus with 32 samples.

Results

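The genes described here are 8 core components of the mTOR pathway: Mtor, Rptor, Rictor, Mlst8, Tsc1, Tsc2, Rheb and Akt1. They were chosen by name, and all 8 were found among the 44081 genes of the 3′UTR count table and among the 23453 genes counted on exons. The mTOR kinase sits in a pair of complexes. In mTORC1 it is joined by Raptor (encoded by Rptor), which recruits substrates that raise protein synthesis, and in mTORC2 by Rictor, while Mlst8 is a subunit of both. The GTPase Rheb switches mTORC1 on, the Tsc1 and Tsc2 proteins together switch Rheb off, and Akt1, a kinase downstream of PI3K, inhibits Tsc2 and is itself a substrate of mTORC2. In neurons the pathway is best known for control of protein synthesis near synapses, for dendrite growth and, through mutations of the TSC genes, for tuberous sclerosis.

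The cells were hippocampal neurons of C57BL/6 mouse embryos (embryonic day 18) kept in culture for 15 days, and the labels give no transgene or treatment. From each of 16 neurons a micropipette took up the cell body and the dendrites apart, so that the 32 libraries form 16 pairs, each from 1 cell. RNA was amplified by the aRNA procedure, linear amplification from the poly-A tail, with 3 rounds in neurons 1 to 4 and 2 rounds in neurons 5 to 16, soma and dendrites alike. Spike-in RNA was given by the labels for all neurons but 1 and 2. Amplification from the tail makes the 3′UTR the best covered stretch of a transcript, and 3′UTR counts were therefore used as the main measure.

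Dendrite libraries held 646521 to 6954420 reads on 3′UTRs (median 1605714) and soma libraries 925525 to 21169974 (median 6165691). The reads carry no molecular identifiers, so counts describe reads and not molecules, and limits set by a count of 0 cover counting error only. Neuronal markers (Map2, Rbfox3, Tubb3, Snap25 and Syt1) were present in every library, with summed levels of 2099 to 9923 CPM (reads per 1e+06 library reads, after TMM scaling) in dendrites and 2975 to 7294 in somas. The inhibitory markers Gad1, Gad2 and Slc32a1 summed to medians of 4033 CPM in dendrites and 9639 in somas, above those of the excitatory markers Slc17a7, Neurod6 and Camk2a (131 and 35.6). Lists of 5 genes each for other cell types had low median sums, of 33.1 CPM (dendrites) and 13.1 (somas) for astrocytes, 1.18 and 0.199 for microglia, 8.30 and 1.59 for oligodendrocytes, and 1.70 and 0.227 for endothelial cells. Single libraries reached more, with the astrocyte list at up to 663 CPM in dendrites (146 in somas), the microglial list at up to 386 (8.88), the oligodendrocyte list at up to 162 (134) and the endothelial list at up to 44.5 (129), where Cldn5 had 0 reads in every library. Their part in the results was not tested. Dendrites of neurons 15 and 16 stood apart from the others: they had 1570 and 2485 genes with at least 10 reads, against a median of 6053 over the 16 dendrites, 35.8% and 32.4% of their reads were mitochondrial (median 13.5%), and each had 3′UTR reads for only 1 of the 8 members. The fit of all genes, the fits by rounds, the joint counts and the read fractions were repeated without these neurons, a setting chosen after seeing the data.

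Each member is transcribed from its own locus (GENCODE on GRCm38, the assembly called mm10 in the alignment). Mtor lies at chr4:148448611-148557683 (plus strand), Rptor at chr11:119602905-119899576 (plus), Rictor at chr15:6708379-6800401 (plus) and Mlst8 at chr17:24473551-24479078 (minus). Tsc1 lies at chr2:28641228-28691167 (plus), Tsc2 at chr17:24595816-24632630 (minus), Rheb at chr5:24802823-24842624 (minus) and Akt1 at chr12:112653821-112674884 (minus). On the opposite strand, Angptl7 overlaps Mtor, Bricd5 overlaps Mlst8, Pkd1 overlaps Tsc2, and Rptoros and Gm11761 overlap Rptor. The counting used strand, so reads of these partners were kept apart from those of the members. On the same strand the annotation places Gm24002 and Gm23318 within the span of Mtor, Gm23663 in Rptor, Gm25363 in Rheb and Mir6939 in Akt1, and strand does not separate these.

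Because both the amplification and the counts start at the 3′ end of a transcript, the last bases of the members' principal transcripts were searched for a polyadenylation signal, the hexamer at which the cleavage machinery is recruited. AATAAA was found in the last 50 bases for 6 of the 8 members, and neither AATAAA nor ATTAAA for the longest principal transcript of Tsc2 or Rheb. Of all 28638 principal transcripts, 54.3% hold AATAAA there and a further 12.0% hold only ATTAAA (sense strand only). The windows below run 5′ to 3′ along the transcript, with the signal closest to the end in capitals, and are placed at chr4:148557644-148557673 for Mtor, chr11:119899383-119899407 for Rptor, chr15:6800364-6800393 for Rictor, chr17:24473555-24473584 for Mlst8, chr2:28691135-28691164 for Tsc1 and chr12:112653827-112653856 for Akt1, within the 3′UTR of each. In Rptor the same 6 letters occur a second time just before the signal in capitals.
Mtor: aaattttgtgccAATAAAtgacatcagaat
Rptor: gtgttaataaagAATAAAgccgtga
Rictor: ggattcattgttAATAAAatgtacttaaaa
Mlst8: accggaactatcAATAAAtgtgtatgaacc
Tsc1: taactgtgaacaAATAAAgatttattgttt
Akt1: ccctccaaattcAATAAAaattgcttttca

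The first question was which members had RNA in the dendrites at all. Rheb and Akt1 were the members found most often, with at least 1 read in 15 and 14 of 16 dendrites, and every soma had reads of both. Mtor and Tsc1 had reads in 13 dendrites each, Rptor in 12, Rictor and Tsc2 in 9 each, and Mlst8 in 7. In somas the same counts were 16 for Mtor, 15 each for Rptor, Rictor and Tsc1, and 14 each for Tsc2 and Mlst8. With at least 10 reads as the limit, which the study took as expressed, the dendrite libraries that remained numbered 14 for Rheb, 14 for Akt1, 10 for Mtor, 10 for Tsc1, 7 each for Rptor, Rictor and Tsc2, and 3 for Mlst8. On exon counts the same limit was met in 14 dendrites for Rheb, 14 for Akt1, 12 for Mtor, 9 for Tsc1, 7 for Tsc2, 6 for Rptor, 4 for Rictor and 3 for Mlst8. A dendrite held 0 to 7 members at this limit (median 5) and a soma 4 to 8 (median 8). All 8 were present in 9 somas and in 0 dendrites. The means were 4.5 members in dendrites and 7.0 in somas. Fewer of all genes were found in dendrites too, with medians of 6052.5 genes at this limit against 9378.5 in somas. Whether the members differed from other genes in this was not tested. Sampling the libraries of a neuron down to equal read numbers put the soma counts between 12 (Mtor, Rptor and Tsc2) and 16 (Rheb). The dendrite counts stayed as they were. Only neuron 12 had more reads in dendrites than in the soma, so for the other neurons the dendrite counts could not change. On 3′UTRs, neurons 15 and 16 added to the dendrite counts only 1 read of Rheb and 46 reads of Akt1.

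**Figure D1:**
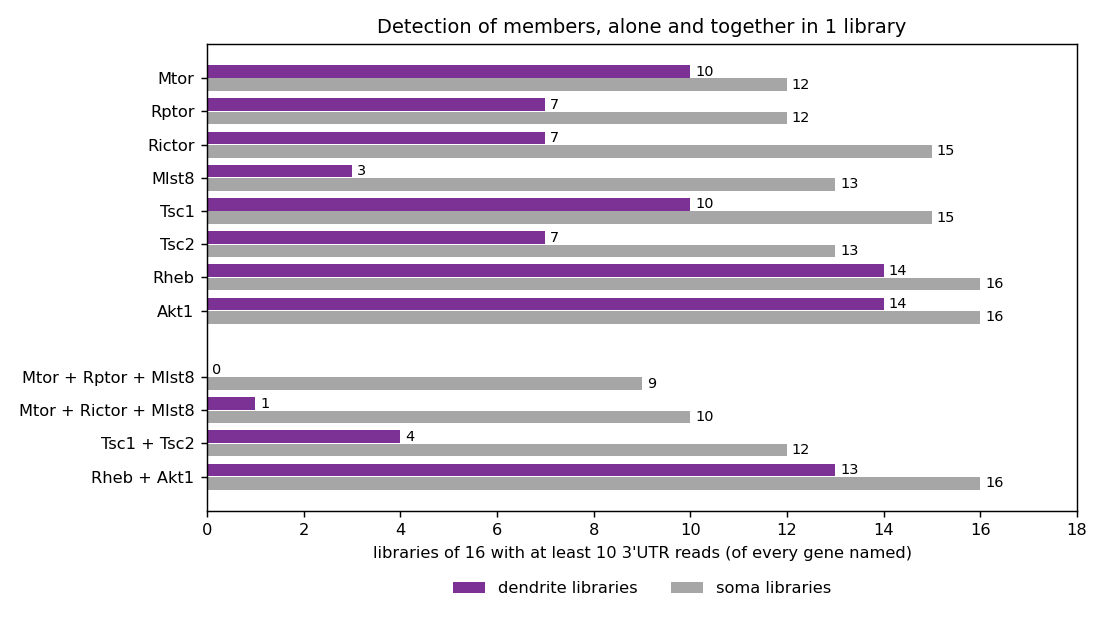
Bars show how many of 16 dendrite libraries (purple) and 16 soma libraries (grey) had at least 10 reads on the 3′UTR of each member, and below the gap, of every gene of a group within 1 library. Mlst8 has the shortest purple bar of the single genes (3 libraries), and the group Mtor, Rptor and Mlst8 has none in dendrites against 9 in somas.

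Since each library comes from 1 cell, it can also be asked whether the partners of a complex were found together. The 3 core subunits of mTORC1 (Mtor, Rptor and Mlst8) each had at least 10 reads in 9 somas and in 0 dendrites, and with at least 1 read in 13 somas and 6 dendrites. For mTORC2 (Mtor, Rictor and Mlst8) the counts were 10 somas and 1 dendrite at 10 reads, the dendrite of neuron 1, and 14 somas and 6 dendrites at 1 read. Mlst8 was the gene most often missing: Mtor and Rptor without regard to Mlst8 reached 10 reads together in 4 dendrites and Mtor and Rictor in 5. Tsc1 and Tsc2, which act as a dimer, were found together at 10 reads in 12 somas and 4 dendrites. Rptor and Rictor, which mark the alternative complexes, reached 10 reads together in 3 dendrites and in 12 somas, while 4 dendrites had Rptor alone, 4 had Rictor alone and 5 had neither. Rheb and Akt1 were found together in 13 dendrites and 16 somas. Leaving out neurons 15 and 16 left each dendrite count at 10 reads for mTORC1, mTORC2, the Tsc1 and Tsc2 pair and the Rheb and Akt1 pair as it was, and gave 8, 8, 11 and 14 somas. These are counts of libraries and were not tested, and the lower number of all genes found in dendrites was not allowed for.

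The second question was whether the level of a member differed between compartments. The 3′UTR counts of the 10880 genes that had a read in 16 or more libraries, among them all 8 members, were fitted with edgeR's quasi-likelihood test with the neuron as a block, and a gene was called at an adjusted p (Benjamini-Hochberg over all genes tested) of at most 0.05. Levels are CPM after TMM scaling, which is a share of the library and not an amount of RNA. Of all genes tested, 5.71% were called higher in soma and 0.827% higher in dendrites, and the median log2 fold change (dendrites over soma) of all genes was -1.49, so a member at this value lies in the middle of all genes. Of the 8 members, 1 was called higher in soma (Mlst8) and 0 were called higher in dendrites. An unadjusted p under 0.05 was reached by 3 members (Mlst8, Rictor and Rheb), all higher in soma, beside 26.7% of all genes in that direction and 3.55% in the other. The median over the members was -1.63.

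**Figure D2:**
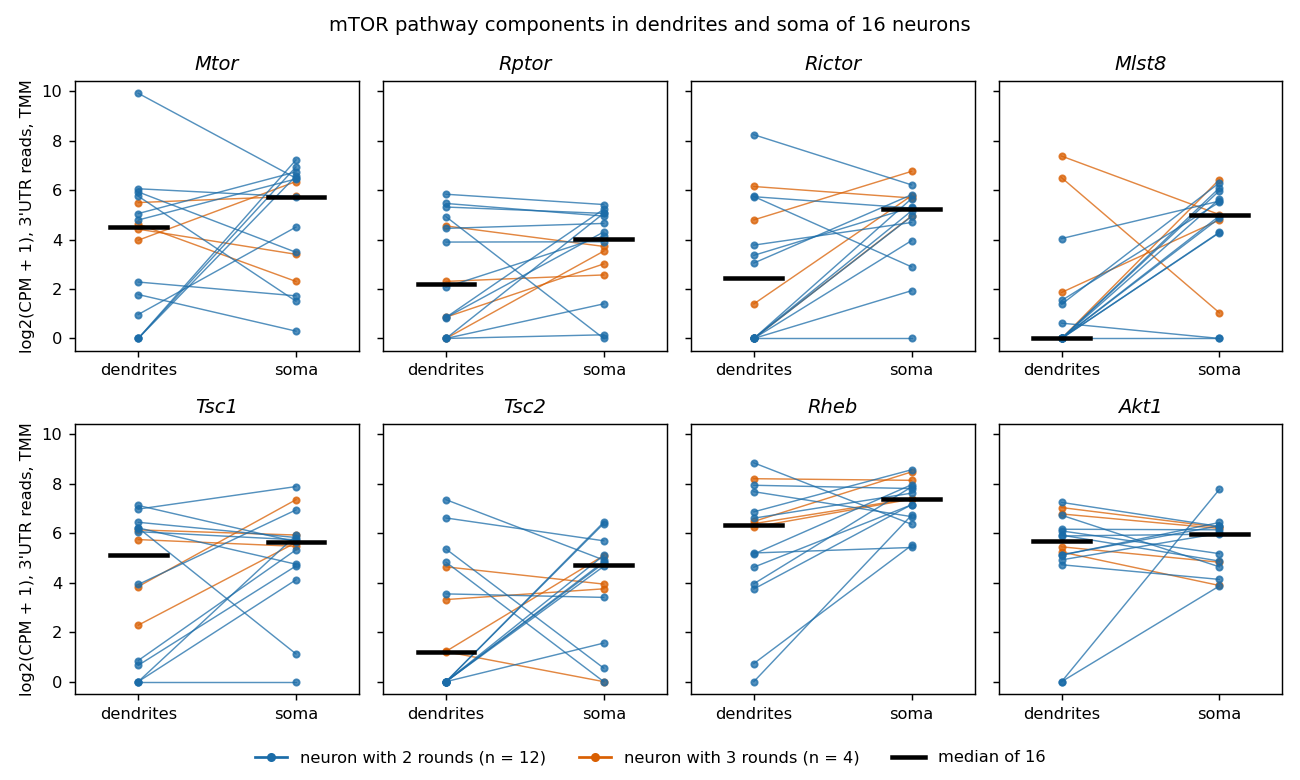
Each line joins the level of a member, as log2(CPM + 1) of 3′UTR reads, in the dendrites and the soma of 1 neuron, coloured by rounds of amplification, and black bars mark the medians of 16 neurons. The dendrite median of Mlst8 lies at 0 while those of Akt1 lie close together (50.6 and 62.3 CPM), and in dendrites every member spans a range that starts at 0, for Rheb only through neuron 16.

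Mtor encodes the kinase itself. In dendrites it had 0 to 1614 reads (median 22.0), or 0 to 965 CPM with a median of 22.1, and in somas 3 to 2303 reads (median 154), or 0.228 to 148 CPM with a median of 52.5. The ranges overlapped, and the top dendrite value was that of neuron 12, which held 73.5% of the summed dendritic CPM, the next highest being 65.5. The level was higher in soma in 8 neurons and higher in dendrites in 8. The dendrites of neurons 11, 15 and 16 had 0 reads while their somas had 122, 148 and 93.8 CPM, at least 42.2-fold above what 3 reads would have given in those dendrites. The log2 fold change was -0.41 (SE 1.29, adjusted p = 0.838 by edgeR's quasi-likelihood test), which is 1.08 above the median gene. The sign depended on the scaling, the counted feature and the libraries: it was 1.08 with dendrites rescaled so that the median gene lay near 0, 0.17 on exon counts, and 0.28 without neurons 15 and 16, a setting chosen after seeing the data.

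Mlst8, a WD-repeat protein bound to the kinase domain and shared by both complexes, showed the clearest difference of the 8. Its reads in dendrites numbered 0 to 202 (median 0) and in somas 0 to 881 (median 195), which gave 0 to 165 CPM (median 0) in dendrites and 0 to 85.1 CPM (median 30.6) in somas. In 9 dendrites no read was found, and in 8 of these neurons the soma was at least 8.25-fold to at least 80.8-fold above the limit that 3 reads set for the dendrite (0.478 to 2.87 CPM). The soma was higher in 12 neurons and the dendrites in 3: neuron 1 (89.7 against 1.06 CPM), neuron 3 (165 against 31.3 CPM) and neuron 8, where the difference was 1 read against 0. Neuron 12 had no read in either compartment. The compartments thus overlapped, and the highest dendrite values, those of neurons 1 and 3, came from libraries with 3 rounds of amplification. The fitted log2 fold change was -5.73 (SE 1.74, adjusted p = 0.0394 by edgeR's quasi-likelihood test), 4.23 below the median gene.

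The call for Mlst8 lay close to the threshold. It held in DESeq2 (log2 fold change -5.60, adjusted p = 3.5e-07) and with size factors of DESeq2 in edgeR (adjusted p = 0.0346), but the adjusted p was 0.0526 on exon counts, 0.0575 at equal read numbers, and 0.126 with dendrites rescaled to the median gene (log2 fold change -4.39). Without the block for neuron the log2 fold change was -1.08 (adjusted p = 0.692) beside mean levels of 17.3 CPM in dendrites and 36.6 in somas. Leaving out 1 neuron at a time kept the call in 5 of 16 fits (adjusted p from 0.0262 to 0.10), those without neuron 1, 2, 3, 5 or 8, and without neurons 15 and 16 it was lost (log2 fold change -5.19, adjusted p = 0.124). The direction was the same in all 30 alternative fits.

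Rptor encodes Raptor, the substrate-binding subunit of mTORC1. Dendrites had 0 to 56.0 CPM (median 3.59) and somas 0 to 41.7 (median 15.3), with 0 to 59 and 0 to 425 reads. These ranges overlapped, and the soma was higher in 11 neurons and the dendrites in 5 (neurons 4, 5, 6, 7 and 13). Neuron 5 was the extreme case, with 38 reads in dendrites and 0 in the soma, and neurons 1 and 16 the opposite, with 0 reads in dendrites and 20 and 355 in the soma. The fitted log2 fold change of -1.54 (SE 1.24, adjusted p = 0.380 by edgeR's quasi-likelihood test) was 0.04 below the median gene. For neuron 13 the measure mattered: its dendrites had 48 reads of Rptor on the 3′UTR and 0 on exons.

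Rictor defines mTORC2, the complex that phosphorylates Akt. It had at least 10 reads in 15 of 16 somas, where it ranged from 0 to 107 CPM with a median of 36.2, and 0 to 302 CPM with a median of 4.46 in dendrites. Soma levels were higher in 11 neurons, dendrite levels in 4 (neurons 2, 5, 6 and 14), and neuron 12 had no read in either, so the ranges overlapped. The dendrites of neuron 14, with 562 reads, held 56.5% of the summed dendritic CPM, and on exons the same library had 135 reads. The log2 fold change was -3.18 (SE 1.41, unadjusted p = 0.0282 and adjusted p = 0.126 by edgeR's quasi-likelihood test), 1.69 below the median gene, and it stayed between -3.64 and -2.46 when any 1 neuron was left out. It was -1.75 with dendrites rescaled to the median gene and -0.19 without the block for neuron.

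Tsc1 encodes hamartin, which stabilises Tsc2. Dendrites had 0 to 139 CPM (median 33.5) and somas 0 to 236 (median 48.9), so the compartments overlapped over most of their range. Soma levels were higher in 8 neurons and dendrite levels in 7, and neuron 15 had 0 reads in both. Of the dendrites, 3 had 0 reads, 3 lay between 0.580 and 3.87 CPM, and the other 10 at 13.4 CPM or above. The fit gave -1.58 on the log2 scale (SE 1.23, adjusted p = 0.363 by edgeR's quasi-likelihood test), 0.09 below the median gene.

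Tsc2 encodes tuberin, the subunit that stimulates GTP hydrolysis by Rheb. Its levels were 0 to 163 CPM (median 1.33) in dendrites and 0 to 86.5 (median 25.6) in somas. No read was found in 7 dendrites, all in neurons with 2 rounds, while neuron 12 had 46 reads in dendrites and 0 in the soma, and neuron 5 had 52 and 1. The ranges overlapped, with soma levels higher in 9 neurons and dendrite levels in 7. Its log2 fold change was -2.41 (SE 1.95, adjusted p = 0.380 by edgeR's quasi-likelihood test), with the largest SE of the 8 members.

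Rheb, the small GTPase that activates mTORC1, was found in every soma at 42.0 to 379 CPM (median 167), and in dendrites at 0 to 461 CPM (median 79.0). The ranges overlapped, and the soma was higher in 12 of 16 neurons. Dendrites were higher in neurons 4, 9, 11 and 14, by a wide margin in neuron 9 (461 against 81.6 CPM). The low end of the dendrites was formed by neuron 16 (0 reads) and neuron 15 (1 read), and the next value was 12.4 CPM. The log2 fold change was -1.69 (SE 0.83, unadjusted p = 0.0476 and adjusted p = 0.162 by edgeR's quasi-likelihood test), 0.19 below the median gene, and -1.25 (adjusted p = 0.229) without neurons 15 and 16.

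Akt1, the kinase that relays growth factor signals to the TSC proteins, had the log2 fold change nearest 0. Its levels ranged from 0 to 151 CPM (median 50.6) in dendrites and from 13.6 to 218 CPM (median 62.3) in somas. The ranges overlapped, with higher levels in dendrites in 10 neurons and in somas in 6. All 4 neurons with 3 rounds were higher in dendrites, and among the 12 neurons with 2 rounds 6 were. The dendrites of neurons 13 and 15 had 0 reads, and the soma of neuron 15 had the highest level of Akt1 (218 CPM). Its log2 fold change was -0.04 (SE 0.88, adjusted p = 0.979 by edgeR's quasi-likelihood test), 1.45 above the median gene, and turned positive in 13 of 30 alternative fits, among them exon counts (0.33), equal read numbers (0.36) and dendrites rescaled to the median gene (1.45).

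**Figure D3:**
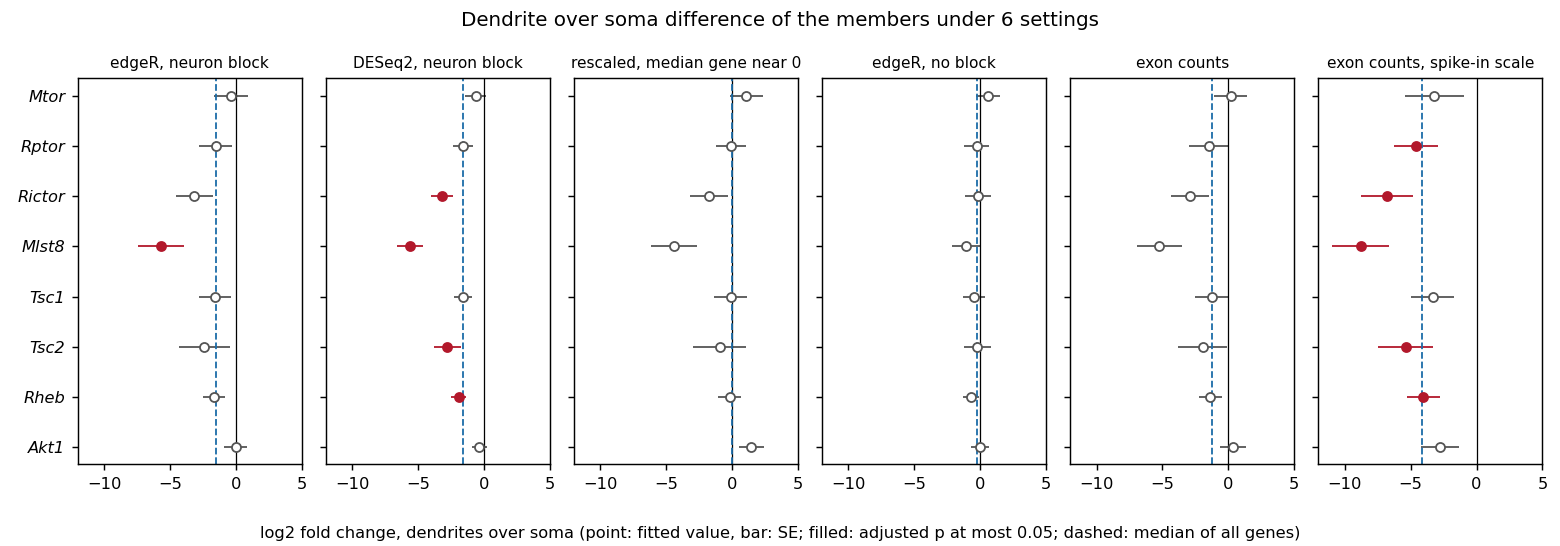
Points give the log2 fold change (dendrites over soma) of each member with its SE under 6 settings, filled where the adjusted p was at most 0.05, and the dashed line is the median of all genes in that fit. Mlst8 is lowest in every panel, and the number of filled points runs from 0 (3 panels) to 1, 4 and 5.

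The number of members called moved with the tool and the scale, and the share of all genes called moved too. DESeq2 with the same pairing called 4 members higher in soma (Mlst8, Rheb, Rictor and Tsc2), where it called 46.2% of all genes in that direction and 4.26% in the other. Scaling exon counts to the spike-in reads, which sets the RNA of the compartments against a fixed amount added to each tube, could be done in the 14 neurons that had spike-ins by their labels. It called 5 members higher in soma (Mlst8, Rictor, Rptor, Rheb and Tsc2), where 64.4% of all genes were called higher in soma and 0.126% higher in dendrites, and the median gene was at -4.15. In that fit the log2 fold changes ran from -8.78 (SE 2.16, Mlst8) to -2.76 (SE 1.44, Akt1), and Tsc1, Akt1 and Mtor were not called (adjusted p = 0.0633, 0.0758 and 0.186). The same neurons under TMM, a setting chosen after seeing the data, gave 1 call (Mlst8), beside 5.29% of all genes higher in soma and 0.725% higher in dendrites.

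Mlst8 was also the 1 member called with the size factors of DESeq2 in edgeR (9.26% of all genes higher in soma, 0.744% higher in dendrites) and in the 12 neurons with 2 rounds (2.88% and 0.385%). No member was called with dendrites rescaled to the median gene (0.846% of all genes higher in soma, 5.04% higher in dendrites), with exon counts (2.62% and 1.0%) or with equal read numbers (2.77% and 1.2%). The same held with no filter beyond 1 read (0.46% of all genes higher in soma, 0.0482% higher in dendrites), with at least 10 reads in 16 libraries (2.55% and 1.24%) and without the neuron block (0.708% and 1.44%). In the 4 neurons with 3 rounds, where 0.00758% and 0.0228% of all genes were called, and without neurons 15 and 16, where 1.68% and 0.531% were, no member was called either. The same held in the 10 neurons with 2 rounds that remained without neurons 15 and 16 (0.348% and 0.197%). The log2 fold changes of Rptor, Rictor, Tsc1 and Tsc2 without neurons 15 and 16 were -1.25, -2.58, -1.25 and -1.39. Higher levels in dendrites were called for 0 of 8 members in every fit named here.

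Read fractions showed how uneven the split was from cell to cell. The dendritic read fraction, the dendrite CPM as a share of dendrite and soma CPM in neurons with at least 10 reads in all, had medians of 60.4% for Akt1 (n = 16 neurons), 46.4% for Rptor (n = 13), 45.5% for Mtor (n = 15), 34.6% for Tsc1 (n = 15), 27.3% for Rheb (n = 16), 11.7% for Rictor (n = 15), 3.87% for Tsc2 (n = 15) and 0% for Mlst8 (n = 14). For every member the fraction reached 0% in some neuron and at least 81.4% in another, but for Rheb the 0% was that of neuron 16 alone, and without neurons 15 and 16 its lowest fraction was 5.86%. Without these neurons the medians were 60.8% for Akt1 (n = 14), 55.7% for Mtor (n = 13), 48.1% for Rptor (n = 12), 44.1% for Tsc1 (n = 14), 41.8% for Tsc2 (n = 13), 32.1% for Rheb (n = 14), 19.4% for Rictor (n = 13) and 1.01% for Mlst8 (n = 12), so that of Tsc2 moved most. With all neurons, the fraction lay under 10% in 11 for Mlst8, 8 for Tsc2, 7 for Rictor and 6 for Tsc1. It did so in 4 each for Mtor, Rptor and Rheb, and in 2 for Akt1. Without neurons 15 and 16 the counts were 9 for Mlst8, 6 for Tsc2, 5 each for Rictor and Tsc1, and 3 for Rptor. They were 2 each for Mtor and Rheb, and 1 for Akt1. Fractions over 90% were found in 2 neurons each for Mtor and Tsc2 and in 1 each for Rptor, Mlst8 and Tsc1.

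The number of rounds of amplification is a technical difference between neurons that the labels give. The labels also give no spike-in for neurons 1 and 2, and the titles carry a letter (B, H, I, M, N or P) whose meaning is not given, with P for neurons 15 and 16. Neither was tested. The difference between compartments was tested for a difference between neurons with 3 and 2 rounds as an interaction in the same edgeR model, and 0 of 8 members passed (adjusted p = 1.0 for each), beside 0.0% of all genes, with 2.65% of all genes at an unadjusted p under 0.05. The largest difference among the members was that of Mlst8, with -7.06 (SE 1.99, adjusted p = 0.0380 by edgeR) in the 12 neurons with 2 rounds and -0.24 (SE 2.77, adjusted p = 0.993) in the 4 with 3 rounds, a difference of 6.50 (SE 4.09, unadjusted p = 0.119). Without neurons 15 and 16 the neurons with 2 rounds gave -6.65 for Mlst8 (SE 2.29, adjusted p = 0.140 by edgeR), and the difference was 6.08 (SE 4.23, unadjusted p = 0.160 by edgeR). For Tsc2 the values were -4.84 (SE 2.87) and -0.17 (SE 2.65), a difference of 4.47 (SE 3.74, unadjusted p = 0.237). Without neurons 15 and 16 Tsc2 was at -2.97 (SE 3.36) with 2 rounds. The difference was then 2.64 (SE 4.21, unadjusted p = 0.536 by edgeR). Over all 16 neurons, Rictor, Rptor and Tsc1 differed by at most 0.31 in size between the groups. The SEs were 5.36, 3.28 and 4.03, so these values do not show that the groups were alike. Without neurons 15 and 16 the differences were -1.16 (SE 3.29), -0.77 (SE 2.85) and -0.69 (SE 2.45). With 4 neurons in 1 group, the SE of the members' differences over all 16 neurons was 1.77 or more on the log2 scale. Only large differences could therefore have been seen.

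Many genes have more than 1 3′ end, and the study counted reads on the last 500 nt of each end separately. The number of such features was 10 for Rptor, 6 for Tsc1, 5 each for Rictor and Akt1, 3 each for Mtor and Rheb, 2 for Tsc2 and 1 for Mlst8. They are known here by number only, without coordinates, so which of a pair is farther from the stop codon is not given. Among libraries with at least 10 reads on the ends of a gene, 1 end carried more than 50% of the reads in nearly every library: end 1 in 14 of 14 dendrites and 16 of 16 somas for Akt1, in 9 of 9 and 15 of 15 for Tsc1, in 9 of 10 and 11 of 12 for Mtor, in 6 of 7 and 11 of 12 for Rptor, and end 2 in 4 of 5 and 8 of 8 for Tsc2. In Rictor, end 1 did so in 12 of 14 somas but in 3 of 5 dendrites. All these shares are of reads on the counted ends. The ends of Tsc2 held 33.1% of its 3′UTR reads in dendrites and 34.5% in somas. Most reads of this gene thus lay outside them. Those of Rheb held 66.6% in dendrites and 62.8% in somas, and those of Rictor 83.8% and 74.2%. For the other members the ends held 91.0% or more in either compartment.

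Rheb was the member with an intermediate mix of ends. In somas, end 1 had on average 72.9% of the reads on the counted ends of Rheb and end 2 had 26.9% (n = 16). Its 3′UTR reads outside these ends are not part of the shares. In the 13 neurons with at least 10 reads on ends 1 and 2 in both compartments, the share of end 1 averaged 85.6% (SD 18.4) across dendrites. Across the paired somas it averaged 73.1% (SD 19.9, n = 13), a difference of 12.5 percentage points ± 17.5 (SD, n = 13). It was higher in dendrites in 8 neurons, lower in 4 and equal in 1 (exact signed-rank test, two-sided, p = 0.0522, adjusted p = 0.949 over 3508 genes). The limit used in the study is p under 0.1, which 8.44% of all genes tested passed, and Rheb was the 1 of 5 testable members to do so. The difference no longer passed that limit with at least 20 reads required (10.8 percentage points, exact p = 0.102, n = 12) or without neuron 2, 3, 5, 8, 10, 13 or 14. For Akt1, Mtor, Rptor and Tsc1 the same exact test gave p = 1.0 (n = 14 neurons), 0.375 (n = 7), 1.0 (n = 6) and 0.844 (n = 9). Rictor and Tsc2 had too few neurons, and Mlst8 has 1 end.

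**Figure D4:**
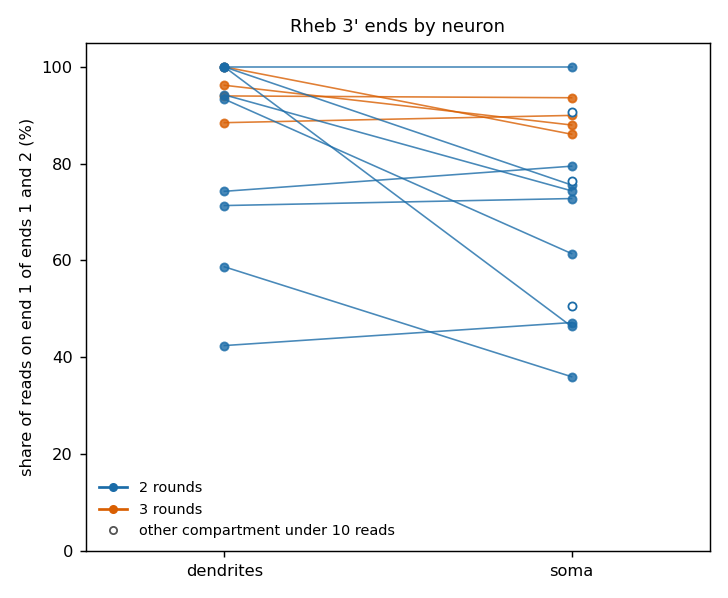
Each line joins the share of Rheb reads on end 1, among reads on ends 1 and 2, in the dendrites and soma of 1 neuron with at least 10 such reads in both compartments (n = 13), and open points are somas whose dendrites had fewer. Of the lines, 8 fall from dendrites to soma, with the steepest in neuron 8 from 100% to 46.4%.

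Other genes of the pathway were taken from 5 lists of 80 genes in all, of which 71 passed the filter on low counts. In the same comparison 9 of them were called higher in soma and 0 higher in dendrites (5.71% and 0.827% of all genes), and their median log2 fold change was -1.83 beside -1.49 for all genes. By list, the calls were 7 of 28 tested among the amino acid inputs (median -2.26), 1 of 10 among the AMPK inputs (median -3.90), 1 of 6 among other subunits and partners of the complexes (median -2.43), 0 of 12 among the PI3K and Akt inputs (median -1.02) and 0 of 15 among the outputs (median -1.08).

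The 7 genes of the amino acid inputs work at the lysosome, where Rag GTPases bring mTORC1 to the membrane when amino acids are plentiful. Rragc, a Rag GTPase, had 0 to 97.5 CPM in dendrites (median 1.85) and 33.6 to 282 in somas (median 102), and was higher in soma in 15 of 16 neurons. Its fitted difference was -5.41 on the log2 scale (SE 1.33, adjusted p = 0.0166 by edgeR's quasi-likelihood test). Rragb, another Rag GTPase, was also higher in soma in 15 neurons (log2 fold change -4.13, adjusted p = 0.0359). Nprl2 and Nprl3, subunits of the GATOR1 complex that silences the Rags, had log2 fold changes of -5.58 and -4.56 (adjusted p = 0.0238 and 0.0305 by edgeR). Sec13, a subunit of GATOR2 that also serves in the nuclear pore and the COPII coat, was at -5.32 (adjusted p = 0.0391), Itfg2, a subunit of the KICSTOR scaffold, at -5.48 (adjusted p = 0.0489), and Sesn1, a sestrin, at -5.92 (adjusted p = 0.0279). Prkaa1, a catalytic subunit of AMPK, had at most 5.41 CPM in dendrites and was at -5.22 (adjusted p = 0.0260). Tti1, which helps to assemble mTOR complexes, was at -5.44 (adjusted p = 0.0435).

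As with Mlst8, most of these calls depended on the setting. Without neurons 15 and 16, Rragc was the one gene of the 9 still called (adjusted p = 0.0427), and on exon counts Rragc, Nprl2 and Itfg2 were. Rragc was called in each of the 16 fits that left out 1 neuron (adjusted p from 0.00853 to 0.0443). The gene with the highest mean level in dendrites of each list was not called: Eif4e, the cap-binding factor among the outputs, with a dendrite median of 175 CPM and reads in 15 dendrites, Pik3ca, a catalytic subunit of PI3K, with 173 CPM and reads in 16, Lamtor5, a subunit of the Ragulator anchor of the Rags, with 115 CPM and reads in 13, Cab39, a partner of the AMPK kinase Stk11, with 101 CPM and reads in 14, and Mapkap1, a subunit of mTORC2, with 41.9 CPM and reads in 14.

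**Figure D5:**
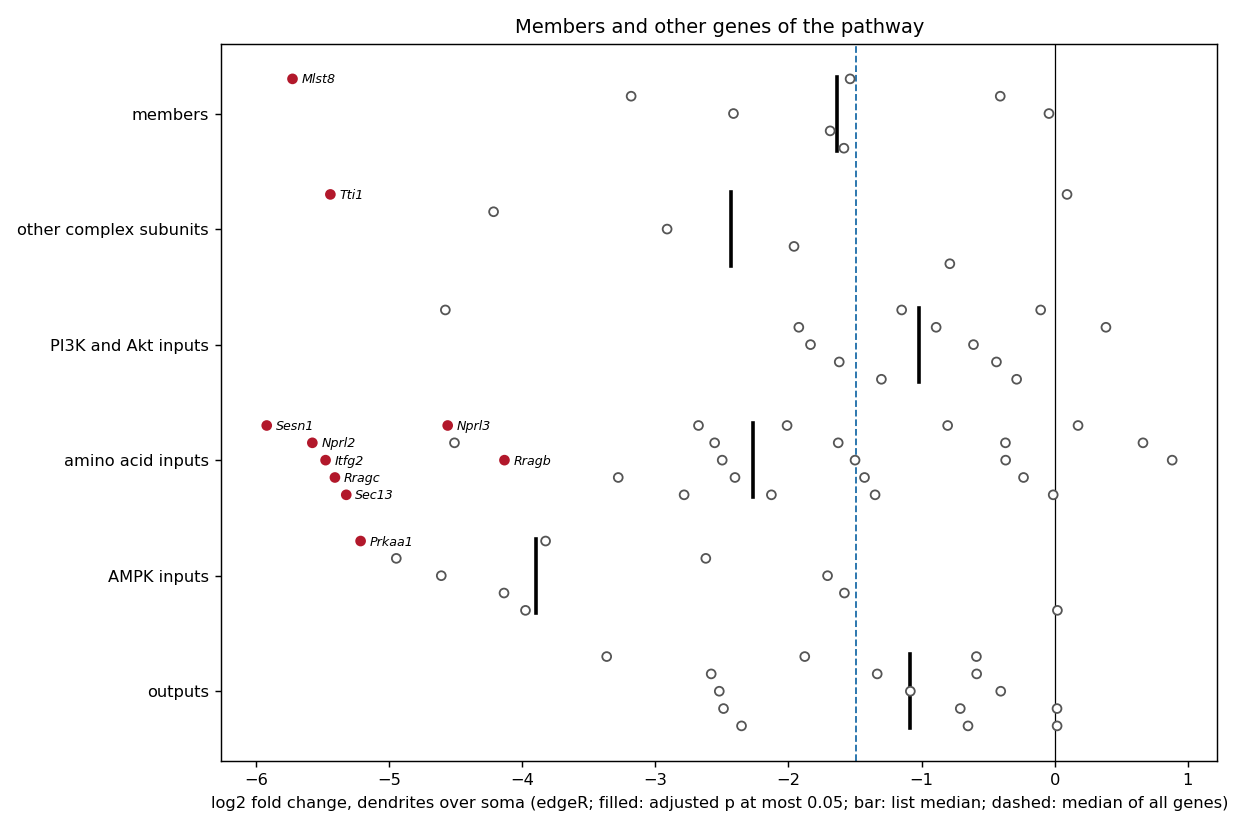
Each point is the log2 fold change (dendrites over soma, edgeR) of 1 gene, by list, filled and named where the adjusted p was at most 0.05, with black bars at the list medians and a dashed line at the median of all genes (-1.49). The filled points (Mlst8 and 9 others) all lie at -4.13 or lower, and no list has one to the right of 0.

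The pattern of each member over the 32 libraries was compared with that of every other gene tested by Spearman correlation of TMM-scaled log2 CPM, as a description. The gene most like Mtor was Bfar (rho 0.70), that of Rptor was Prr3 (0.79), of Rictor Ltv1 (0.82), of Mlst8 Tars2 (0.81), of Tsc1 Pole4 (0.71), of Tsc2 Ipo11 (0.71), of Rheb Rchy1 (0.82) and of Akt1 Arfgef2 (0.67), each the highest of 10879 genes. Points share depth and compartment. Among the members themselves the highest value was 0.61, between Mtor and Akt1, followed by Tsc1 and Rheb (0.53), Rptor and Tsc2 (0.51) and Rictor and Mlst8 (0.50). Tsc1 and Tsc2, whose proteins form a dimer, were at -0.02, and Mtor and Rptor at 0.01.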

How the data were processed

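The authors aligned trimmed reads to mm10 with STAR 2.4.0 and counted uniquely mapped reads by strand with VERSE. All deposited values used here are raw read counts, on the merged 3′UTRs of a gene, on the last 500 nt of each of 74532 3′ ends, and on exons and 92 spike-ins. The annotation behind the exon counts is not given in the sources used here. Columns were matched to samples by their labels (0 columns of other samples). Genes with a read in 16 or more libraries were compared with edgeR 4.0.16 (TMM, robust quasi-likelihood test, R 4.3.3), with the neuron as a block, since both compartments come from 1 cell, and an adjusted p of at most 0.05. DESeq2 1.42.0, other scalings and filters, exon counts and subsets of neurons were alternatives. Shares of 3′ ends were compared by exact signed-rank tests in genes with at least 10 reads in both compartments of at least 5 neurons. Other values came from Python 3.11.15, NumPy 2.4.6, pandas 2.3.3 and SciPy 1.17.1. Both tests were tested on simulated data.

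Residuals of dendrites and soma correlated with a mean of 0.0887 ± 0.0772 (SD, n = 16) within a neuron and -0.00559 ± 0.0526 (SD, n = 240) between neurons. The genes named were the members, every other pathway gene called, the gene of each list with the highest mean level in dendrites, and the gene most like each member. The members and lists were chosen with earlier results of these data known. Precision was taken from the spread between neurons, and limits for a count of 0 (3 reads) cover counting error only.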

Additional observations from a re-analysis of the deposited data

Results flagged for a closer look

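The values of each member in the dendrites and in the somas of the neurons with 3 rounds gave 16 groups of 4 libraries. Of these groups, 2 held a library far from the other 3 by Dixon's ratio, taken on CPM without a log. Chance does this in about 1 of 20 groups if values are normally distributed, and whether that rate holds for CPM was not tested. Rheb stood at 295 CPM in the dendrites of neuron 4, where the other three lay between 75.1 and 88.3. Tsc1 stood at 163 CPM in the soma of neuron 1, where the other three lay between 43.4 and 60.0. The cause was not tested in either case.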

How the results depend on the processing

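The direction was the same in all 30 alternative fits for 6 members, and turned in 8 for Mtor and 13 for Akt1. With 1 member (Mlst8) and 9 other pathway genes called higher in soma in the fit reported, the numbers were 4 and 35 by DESeq2, 0 and 0 with dendrites rescaled to a median of 0, 0 and 2 with no filter beyond 1 read, and 0 and 1 with at least 10 reads in 16 libraries. They were 0 and 4 on exon counts, 5 and 44 on exon counts scaled to spike-ins, and 0 and 5 at equal read numbers. In the neurons with 2 rounds they were 1 and 4, in those with 3 rounds 0 and 0, without neurons 15 and 16 (a setting chosen after seeing the data) 0 and 2, and with 2 rounds and without these neurons (also chosen so) 0 and 0. Leaving out 1 neuron at a time gave 0 to 1 members and 1 to 12 other genes, and 1 pathway gene (Lamtor4, chosen after its value was seen) was called higher in dendrites after rescaling. Both compartments of a neuron come from the same cell, and without this pairing as a block 0 members and 0 other pathway genes were called, with 77 of all genes called higher in soma against 621 with the block and 157 against 90 higher in dendrites.

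The sign of Mtor turned with rescaling (1.08), without the block (0.58), on exon counts (0.17), with 3 rounds (0.38), without neurons 15 and 16 (0.28) and with 2 rounds without them (0.35), and ran from -0.78 to 0.19 when 1 neuron was left out. That of Akt1 turned with rescaling (1.45), with at least 10 reads (0.27), on exon counts (0.33), at equal read numbers (0.36), with 3 rounds (0.98) and without neurons 15 and 16 (0.23), and ran from -0.15 to 0.45 when 1 neuron was left out. Sec13 turned with 3 rounds (0.0766). These are log2 fold changes, and the cause was not tested. The count of members whose 3′ ends differed at p under 0.1 was 1, and 0 with at least 20 reads or with 2 rounds, and 0 to 1 when 1 neuron was left out. In the same way the difference in end share ran from -2.82 to 0.549 percentage points for Akt1, from -18.1 to 5.37 for Rptor and from -2.11 to 2.73 for Tsc1. Where a member had 0 reads, 3 reads would have given 0.478 to 4.01 CPM in dendrites and 0.325 to 2.96 CPM in somas.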
